A study of Mus musculus with 6 samples.

Results

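The Hox genes of the mouse lie in 4 clusters, Hoxa, Hoxb, Hoxc and Hoxd, and were chosen here by symbol alone: every promoter window named Hox, a cluster letter a to d and a paralogue number. The rule found 39 of 27095 windows, 11 in Hoxa, 10 in Hoxb, 9 in Hoxc and 9 in Hoxd. The windows were measured by ATAC-seq, an assay in which the Tn5 transposase cuts open chromatin, so that a higher count means a more accessible promoter. The cells were medullary thymic epithelial cells carrying high levels of MHC class II, which show self-antigens to developing T cells. There were 3 libraries from wildtype mice and 3 from mice lacking Kat7, all on the C57BL/6 background. Kat7 encodes a histone acetyltransferase. The sources used here do not give the age of the mice, which part of Kat7 was deleted, or in which cells and by what means.

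Hox genes encode homeodomain transcription factors that give cells of the embryo their position along the head-to-tail axis. Genes with the same paralogue number in different clusters descend from one ancestral gene. Within a cluster the low numbers lie at the 3′ end and act towards the head, and the high numbers lie at the 5′ end and act towards the tail. Polycomb complexes keep the clusters silent and MLL complexes keep them active, and retinoic acid and CDX factors open them in the embryo. In the thymus the best known member is Hoxa3, which the third pharyngeal pouch needs to form the organ.

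Library totals ran from 15482439 to 19832326 counts, of which 8504 to 15382 fell in Hox windows, and a Hox window held 11 to 1346 counts in a library. The Kat7 window checked the labels: it held 291, 238 and 272 CPM (counts scaled to a common library size) in wildtype libraries 1 to 3 and 11.9, 13.2 and 38.3 CPM in knockout libraries 1 to 3. Its log2 fold change was -3.66 (adjusted p = 0.0143). Every adjusted p here comes from edgeR's quasi-likelihood test over all tested windows with Benjamini-Hochberg adjustment, unless another test is named. All 9 markers of these epithelial cells were detected, at a summed 1715 to 1780 CPM in wildtype and 1639 to 1976 CPM in knockout. A count is called lower or higher where its adjusted p was under 0.05.

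The Hox promoters were less accessible in the knockout. The summed level of the 39 windows was 788, 756 and 768 CPM in wildtype libraries 1 to 3 and 564, 517 and 520 CPM in knockout libraries 1 to 3. The knockout libraries therefore kept 69.2% of the wildtype mean, and no knockout library reached a wildtype one. Of the 39 windows, 25 were lower, 0 were higher and 14 did not pass. Over all 24817 tested windows, 20.2% were lower and 6.36% higher. The median log2 fold change of the Hox windows was -0.58, beside 0.04 over all tested windows. In 28 of the 39, all 3 knockout libraries were below the lowest wildtype library, which held for 24.6% of all tested windows. The falls were mostly under 2-fold: 4 of 39 members were at least 2-fold lower, a share of 10.3%, near the 7.28% of all tested windows. In bulk chromatin, fewer cells with an open Hox promoter and less open chromatin in each cell cannot be told apart.

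This count depended on how the libraries were scaled. Loess offsets, which remove a trend of the fold change with the level of a window, left 14 Hox windows lower and 6 higher, with a median of -0.20. With the same offsets 19.6% of all tested windows were lower and 17.4% higher. The lower share of Hox windows was then 35.9% and the higher share 15.4%. Scaling by library totals only, with no factors, gave 26 lower and 0 higher. The values below for neighbouring windows and gene lists come from the test without loess offsets. Their calls with loess offsets are not given.

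Hox windows had middle levels, where calls of lower accessibility were common. By quartile of mean level over all tested windows, 2 Hox windows lay in the lowest quartile, 13 in the second, 24 in the third and 0 in the highest. In the third quartile 18 of 24 Hox windows were lower, beside 43.2% of all its windows, and the medians were -0.54 and -0.19. In the second quartile 7 of 13 were lower, beside 32.5%, with medians of -0.60 and -0.27. With loess offsets the third quartile had 12 Hox windows lower and 4 higher, beside 31.0% and 30.4% of its windows, and the second had 1 lower and 2 higher, beside 23.2% and 15.6%.

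**Figure D1:**
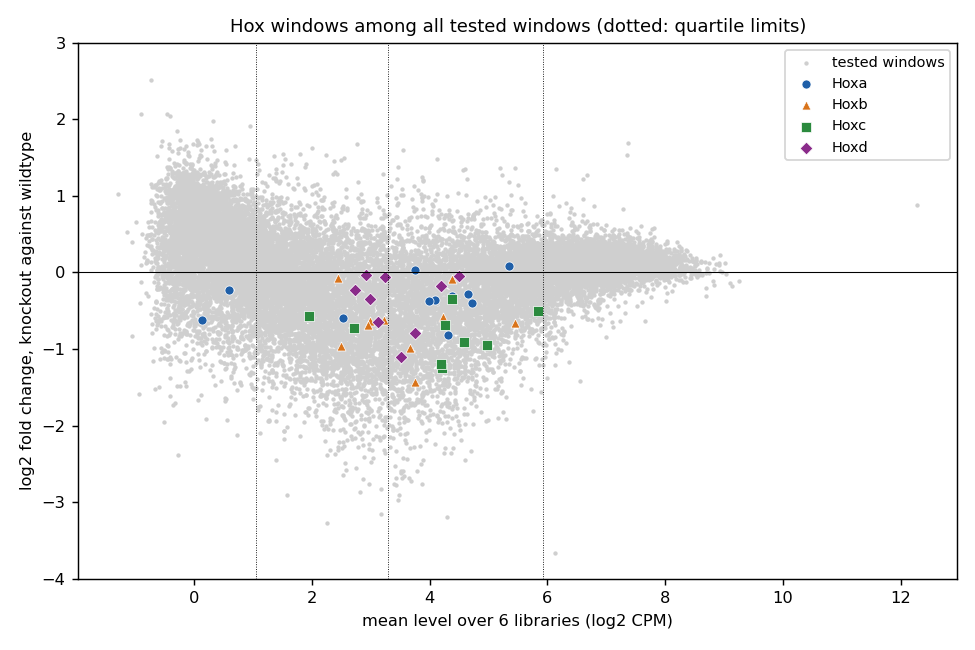
Log2 fold change (knockout against wildtype, vertical axis) against mean level in log2 CPM (horizontal axis) for all tested windows in grey and the Hox windows coloured by cluster. Nearly all Hox windows sit below 0 and between the outer quartile limits, with 24 of 39 in the third quartile.

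Some markers of other cells that a sort can carry along differed too. Of 12 mesenchymal markers, genes of connective tissue cells that also use Hox genes, 7 were lower and 2 higher (Dcn and Lum), and their summed level was 254 to 262 CPM in wildtype and 176 to 189 CPM in knockout. The 6 B cell markers summed to 121 to 123 CPM in wildtype and 58.3 to 59.7 CPM in knockout, with 4 lower and 0 higher. Much of this sum was Ebf1, with a mean of 63.9 CPM in wildtype and 21.7 CPM in knockout, and Cd79a and Ms4a1 did not pass. Of 8 endothelial markers 2 were lower and 1 higher, at a summed 50.9 to 52.6 CPM in wildtype and 40.1 to 46.9 CPM in knockout. Of 9 myeloid markers 4 were lower and 0 higher, at 116 to 124 and 101 to 118 CPM. Of 10 tested thymocyte markers 1 was lower and 2 higher, at 51.3 to 58.1 and 52.6 to 61.3 CPM. Every marker of these lists had counts in every library. Most of them lie in quartiles 2 and 3 of mean level. Of all tested windows in these quartiles 32.5% and 43.2% were lower, and 4.58% and 9.28% higher. The part of these cells in the Hox result was not tested.

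The 4 clusters kept different shares of their wildtype accessibility. Hoxc kept 58.8%, Hoxb 63.6%, Hoxd 77.8% and Hoxa 82.3% of the summed CPM. The lower windows numbered 8 of 9 in Hoxc, 8 of 10 in Hoxb, 6 of 11 in Hoxa and 3 of 9 in Hoxd. The median log2 fold changes were -0.73, -0.65, -0.36 and -0.23 in the same order. All Hox windows but Hoxa2 and Hoxa11 lie in quartiles 2 and 3 of mean level (1 is the lowest). Of all tested windows in these quartiles 32.5% and 43.2% were lower, with medians of -0.27 and -0.19. The share of lower windows and the median in Hoxd were thus near those of all windows at its level. With loess offsets the medians of Hoxa and Hoxd turned to 0.01 and 0.19, and those of Hoxb and Hoxc stayed below 0 at -0.21 and -0.50. A ratio of counts within a library does not depend on the scaling of libraries. The ratio of all Hoxc to all Hoxa counts was 1.30, 1.17 and 1.31 in wildtype and 0.907, 0.841 and 0.953 in knockout, so the groups did not overlap. The ratio of Hoxb to Hoxa was 0.898, 0.812 and 0.943 in wildtype and 0.684, 0.669 and 0.694 in knockout, again without overlap. The ratio of Hoxd to Hoxa overlapped, at 0.580, 0.559 and 0.609 against 0.534, 0.527 and 0.596. These differences between clusters were noticed in the same data and carry no test.

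**Figure D2:**
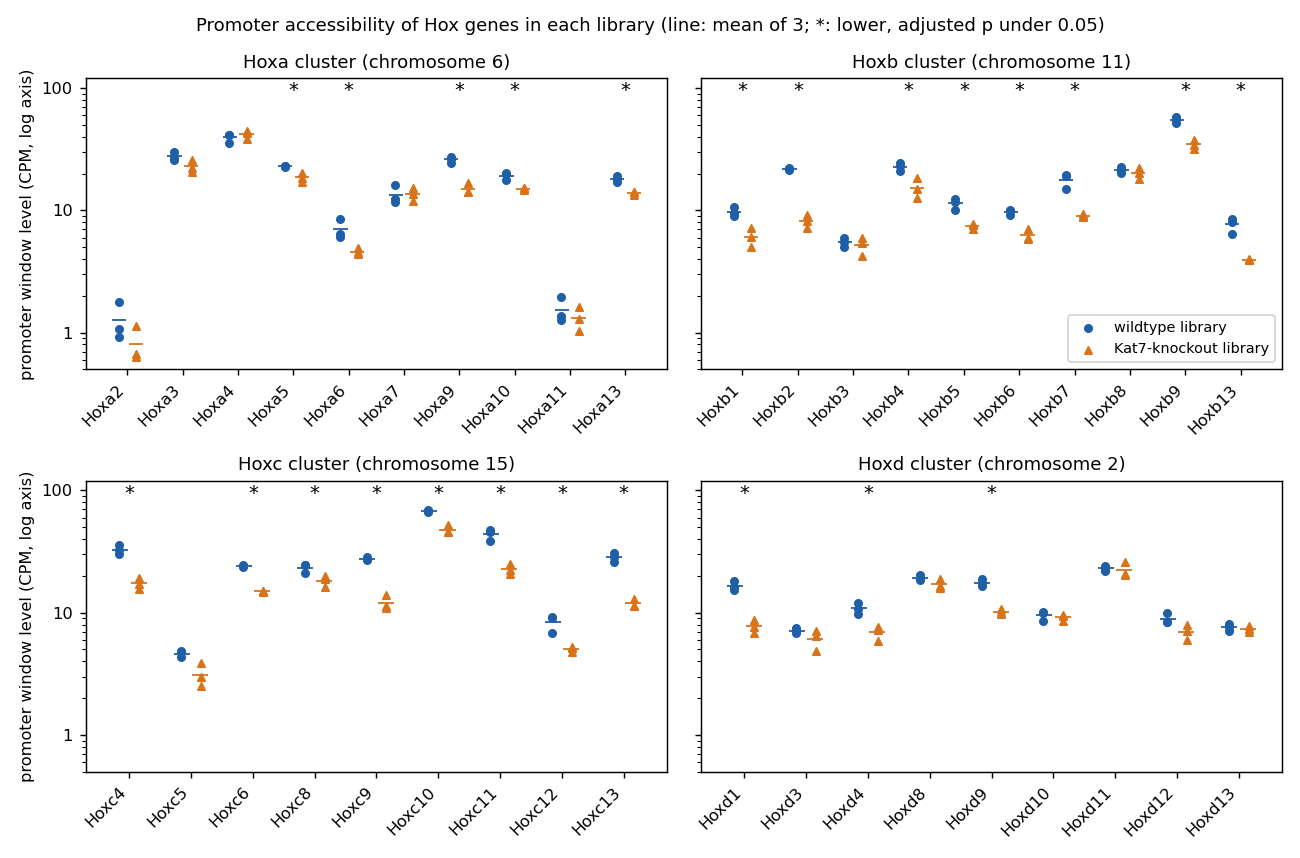
Level of the reported Hox windows in CPM (log axis) in the 3 wildtype libraries (circles) and 3 knockout libraries (triangles), with the mean of each group as a line and a star where the window was lower. In Hoxc every window has its knockout libraries below its wildtype libraries, and in Hoxd 5 of 9 windows overlap.

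Levels in the wildtype also differed between members. Per unshared kilobase, that is, over the bases of a window that no other window covers, the wildtype level was 13.6 CPM at Hoxc10, 11.0 at Hoxb9, 9.69 at Hoxa3 and 8.77 at Hoxc11, all in the upper range of the members. It was lowest at Hoxa11 with 1.00 and Hoxb3 with 1.13 CPM per kilobase. Across the 39 members this wildtype level had a Pearson r of -0.13 and a Spearman rho of -0.13 with the log2 fold change, as a description over windows that share libraries. The 21 windows that share no base with another window had 14 lower and a median of -0.66, and the 18 that share bases had 11 lower and a median of -0.57.

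The Hoxc cluster on chromosome 15 (102918131 to 103036395, mm10, plus strand) had the largest share of lower windows. Hoxc genes pattern the trunk and hind limb, and its last members act in hair follicles and nails. Hoxc13, needed for hair and nail keratin genes, held 30.5, 26.0 and 28.5 CPM in wildtype and 13.0, 11.3 and 11.4 CPM in knockout. It fell by 1.25 on the log2 scale (adjusted p = 3.38e-22, SE 0.12), and the groups lay far apart. Hoxc9, which sets the thoracic identity of motor neurons, held 27.0, 27.4 and 28.3 CPM against 11.3, 10.9 and 13.9 CPM, a log2 fold change of -1.19 (adjusted p = 3.16e-20, SE 0.12). Hoxc11 held 47.0, 38.5 and 46.0 CPM against 25.2, 20.6 and 22.4 CPM, a log2 fold change of -0.95 (adjusted p = 2.24e-15, SE 0.11). Hoxc4 held 35.5, 32.3 and 30.0 CPM against 19.3, 15.7 and 17.2 CPM, with -0.91 (adjusted p = 2.85e-13, SE 0.12). In each of these 4 windows all knockout libraries lay below all wildtype libraries.

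Smaller falls were seen in the rest of Hoxc. Hoxc10, which acts in lumbar motor neurons and the hind limb, had the highest level of any Hox window, at 69.0, 66.2 and 68.3 CPM in wildtype against 51.7, 45.5 and 45.9 CPM in knockout (log2 fold change -0.51, adjusted p = 5.86e-05, SE 0.11). Hoxc6 held 24.3, 23.5 and 24.2 CPM against 15.0, 15.2 and 14.7 CPM, the tightest pair of groups in the cluster, with a log2 fold change of -0.68 (adjusted p = 2.66e-07, SE 0.12). Hoxc12, a weakly open window, held 8.97, 6.84 and 9.22 CPM against 5.16, 5.20 and 4.77 CPM (log2 fold change -0.73, adjusted p = 0.000319, SE 0.18). None of these 3 windows had overlapping groups. Hoxc8, a trunk gene, held 24.5, 24.4 and 21.1 CPM against 19.9, 16.3 and 18.8 CPM, a log2 fold change of -0.35 (adjusted p = 0.0167, SE 0.12). Its call was lost without wildtype library 1 (adjusted p = 0.0686) or knockout library 2 (adjusted p = 0.182), and with loess offsets its log2 fold change was 0.0068. Hoxc5 did not pass, at 4.30, 4.73 and 4.84 CPM against 2.98, 2.51 and 3.85 CPM (log2 fold change -0.57, adjusted p = 0.0679, SE 0.24). Without knockout library 3 the adjusted p of Hoxc5 was 0.0263.

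The Hoxb cluster on chromosome 11 (96191361 to 96367758, mm10, plus strand) held the largest single fall of all 39 members. Hoxb2, a hindbrain patterning gene, held 21.9, 22.2 and 21.5 CPM in wildtype and 7.16, 8.18 and 9.11 CPM in knockout, a log2 fold change of -1.42 (adjusted p = 1.81e-24, SE 0.13). The knockout kept 37.3% of the wildtype level. Its neighbour Hoxb3, a gene of the hindbrain and pharyngeal arches, did not pass: 5.02, 5.50 and 5.97 CPM against 5.96, 4.24 and 5.38 CPM, a log2 fold change of -0.08 (adjusted p = 0.815, SE 0.20), with overlapping groups. The sign at Hoxb3 is not stable: it was 0.05 without knockout library 2 and 0.30 with loess offsets. The count ratio of Hoxb2 to Hoxb3, a pair picked after the values were seen, was 4.36, 4.05 and 3.60 in wildtype and 1.20, 1.93 and 1.69 in knockout.

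Most other Hoxb members were lower by similar amounts. Hoxb7 held 19.1, 15.0 and 19.3 CPM against 9.34, 8.96 and 8.81 CPM (log2 fold change -0.98, adjusted p = 1.17e-11, SE 0.14). Hoxb13, a prostate and tail gene that lies apart from the rest of the cluster, held 8.10, 6.39 and 8.57 CPM against 3.90, 3.94 and 4.04 CPM (-0.96, adjusted p = 6.88e-06, SE 0.19). Hoxb9, the most accessible window of the cluster, held 57.9, 51.9 and 54.9 CPM against 37.8, 34.2 and 32.0 CPM (-0.66, adjusted p = 4.56e-08, SE 0.11). All knockout libraries lay below all wildtype libraries in these windows. Hoxb1, which specifies the hindbrain segment of the facial nerve, held 9.53, 9.01 and 10.7 CPM against 5.04, 7.17 and 6.05 CPM, a log2 fold change of -0.68 (adjusted p = 0.000268, SE 0.17). Hoxb4, known from blood stem cells, held 23.1, 20.8 and 24.5 CPM against 18.3, 14.9 and 12.7 CPM, a log2 fold change of -0.58 (adjusted p = 2.26e-05, SE 0.12). Here too the groups stayed apart, though knockout library 1 came close to the wildtype at Hoxb4.

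Hoxb5 and Hoxb6 are adjacent trunk genes. Hoxb5 held 12.5, 10.1 and 11.8 CPM in wildtype against 7.79, 7.53 and 7.09 CPM in knockout (log2 fold change -0.62, adjusted p = 0.000347, SE 0.15). Hoxb6 held 9.17, 9.91 and 10.1 CPM against 5.90, 7.05 and 5.81 CPM (log2 fold change -0.64, adjusted p = 0.000711, SE 0.16). Both fell by about the same amount. Hoxb8, used to keep myeloid progenitors growing in culture, held 21.2, 22.6 and 20.3 CPM against 22.1, 17.9 and 20.2 CPM and did not pass (log2 fold change -0.08, adjusted p = 0.651, SE 0.12). Hoxb8 was called higher with loess offsets, at 0.27 (adjusted p = 0.0405).

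The Hoxd cluster on chromosome 2 (74665310 to 74764980, mm10, plus strand) was lower at Hoxd1, Hoxd4 and Hoxd9. Hoxd3 and Hoxd8, which lie between Hoxd4 and Hoxd9, did not pass. Hoxd1, at the 3′ end and known from pain-sensing neurons, held 18.3, 15.3 and 16.2 CPM in wildtype and 6.82, 7.70 and 8.74 CPM in knockout, a log2 fold change of -1.10 (adjusted p = 1.65e-13, SE 0.14). Hoxd9 held 16.4, 17.5 and 18.8 CPM against 9.80, 10.1 and 10.7 CPM (-0.79, adjusted p = 5.31e-08, SE 0.13). Hoxd4 held 9.69, 10.7 and 12.1 CPM against 7.16, 5.91 and 7.70 CPM (-0.64, adjusted p = 0.000283, SE 0.16). These 3 windows were the only ones of the cluster that were lower, and none had overlapping groups.

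The 4 windows at the 5′ end of Hoxd, from Hoxd10 to Hoxd13, are genes of the limb, digits and genital tubercle, and none of them passed. Hoxd13 held 7.02, 8.05 and 7.68 CPM in wildtype against 7.85, 7.35 and 6.97 CPM in knockout, a log2 fold change of -0.03 (adjusted p = 0.909, SE 0.17). Hoxd11, the most accessible window of the cluster, held 24.3, 22.0 and 22.7 CPM against 25.7, 20.7 and 20.3 CPM (-0.05, adjusted p = 0.796, SE 0.12). Both pairs of groups overlapped. Hoxd10 held 10.1, 9.91 and 8.57 CPM against 9.34, 8.60 and 9.54 CPM (log2 fold change -0.06, SE 0.15), also with overlap. Hoxd12 held 9.94, 8.37 and 8.39 CPM against 5.96, 7.11 and 7.95 CPM (log2 fold change -0.35, adjusted p = 0.102, SE 0.16), with the groups just apart. Hoxd8 had 18.6, 20.3 and 19.3 CPM against 18.8, 15.9 and 16.6 CPM (log2 fold change -0.18, SE 0.12), and Hoxd3 had 6.76, 7.22 and 7.44 CPM against 4.81, 6.39 and 7.09 CPM (log2 fold change -0.23, SE 0.18), both with overlap. With loess offsets Hoxd10, Hoxd11 and Hoxd13 were called higher, at 0.40, 0.28 and 0.41. The signs at Hoxd11 and Hoxd13 also turned without knockout library 3, to 0.01 and 0.0059. Within the cluster the count ratio of Hoxd1 to Hoxd10 was 1.81, 1.54 and 1.89 in wildtype and 0.730, 0.896 and 0.917 in knockout, a pair picked after its values were seen.

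The Hoxa cluster on chromosome 6 (mm10, minus strand) kept the largest share of its accessibility. Hoxa9, a gene of blood progenitors and leukaemia, held 27.6, 26.5 and 24.6 CPM in wildtype and 16.7, 14.1 and 14.0 CPM in knockout, a log2 fold change of -0.81 (adjusted p = 3.86e-10, SE 0.12). It was the only Hoxa window called lower under all 14 alternative settings. Hoxa6 held 6.05, 6.45 and 8.45 CPM against 4.53, 4.90 and 4.40 CPM (log2 fold change -0.60, adjusted p = 0.00971, SE 0.19). The Hoxa6 call was lost without wildtype library 3, its highest library (adjusted p = 0.225).

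Hoxa13, Hoxa10 and Hoxa5 were lower by small amounts. Hoxa13, a gene of digits and the hindgut, held 18.1, 19.0 and 17.1 CPM in wildtype against 14.2, 14.2 and 13.3 CPM in knockout (log2 fold change -0.38, adjusted p = 0.0144, SE 0.13). Hoxa10, a gene of the uterus and vertebrae, held 20.1, 19.9 and 17.8 CPM against 15.4, 15.1 and 14.6 CPM (log2 fold change -0.36, adjusted p = 0.0187, SE 0.13). Hoxa5, a lung gene, held 22.9, 22.8 and 23.2 CPM against 20.4, 18.3 and 17.2 CPM (log2 fold change -0.30, adjusted p = 0.0461, SE 0.12). The groups of all 3 stayed apart, but the calls were not stable. Without knockout library 3 the adjusted p of Hoxa13 was 0.0634, of Hoxa10 0.0676 and of Hoxa5 0.200, and Hoxa then had 3 windows lower. The Hoxa10 call was also lost without wildtype library 1 (adjusted p = 0.0596) or knockout library 2 (adjusted p = 0.0682). The Hoxa5 call was also lost without wildtype library 1 (adjusted p = 0.0753), wildtype library 3 (0.0712) or knockout library 2 (0.151). DESeq2 called 2 Hoxa windows lower, edgeR with RLE factors 3, and loess offsets 2, with 2 higher.

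Hoxa3, the thymus-forming member, was near the threshold. It held 30.1, 25.9 and 27.3 CPM in wildtype and 25.6, 20.8 and 22.2 CPM in knockout, a log2 fold change of -0.28 (adjusted p = 0.0557, SE 0.12). It was called lower in 8 of 14 alternatives. Its adjusted p was 0.00219 without wildtype library 2, 0.0413 without wildtype library 3 and 0.0118 without knockout library 1. It was 0.0243 with the replicate number as a block, 0.0162 with library totals only, 0.0103 without a count filter, 0.0273 at a mean count of at least 50 and 0.0287 with replicates 2 and 3 only. With loess offsets its log2 fold change was 0.01. The Hoxa3 window lies between those of Hoxa6 and Hoxa7, so it covers only the start listed for the gene in the files. Hoxa4, a gene of the neck vertebrae, had the highest CPM of the cluster, at 41.3, 41.7 and 35.6 CPM against 43.2, 44.4 and 38.3 CPM (log2 fold change 0.09, adjusted p = 0.621, SE 0.11). Per unshared kilobase its wildtype level was 7.91 CPM, below the 9.69 of Hoxa3. Hoxa7 held 12.3, 16.1 and 11.8 CPM against 15.1, 13.6 and 12.0 CPM (log2 fold change 0.03, adjusted p = 0.914, SE 0.13). These were the only members above 0, their groups overlapped, and the sign turned at Hoxa4 without wildtype library 3 (-0.01) and at Hoxa7 without wildtype library 1 (-0.03), wildtype library 3 (-0.09) or knockout library 1 (-0.06). With loess offsets both were called higher, at 0.21 and 0.47.

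Hoxa2 and Hoxa11 were barely measured. Hoxa2, which patterns the second pharyngeal arch, held 0.922, 1.79 and 1.06 CPM against 0.630, 1.13 and 0.673 CPM over 157 unshared bases (log2 fold change -0.62, adjusted p = 0.390, SE 0.50). Hoxa11, a gene of the forearm and kidney, held 1.95, 1.28 and 1.36 CPM against 1.03, 1.61 and 1.28 CPM over 1524 unshared bases (log2 fold change -0.23, adjusted p = 0.747, SE 0.44). With loess offsets Hoxa2 was called lower, at -0.96 (adjusted p = 0.0438), and with 1 library left out its log2 fold change ran from -0.93 to -0.32 without passing. Hoxa11 did not pass in any setting that tested it, and turned to 0.13 with replicates 2 and 3 only.

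By paralogue number the calls did not follow the head-to-tail order. All members were lower in groups 6 (3 of 3) and 9 (4 of 4), and in groups 4 and 13 it was 3 of 4. No member was lower in group 3 (0 of 3), and 1 of 3 was in groups 8 and 11. Group 9 had a median log2 fold change of -0.80 and a range of -1.19 to -0.66, with every window apart between the groups of libraries. Group 13 ran from -1.25 at Hoxc13 to -0.03 at Hoxd13. The count ratio of Hoxc13 to Hoxd13, picked after the values were seen, was 4.34, 3.23 and 3.72 in wildtype and 1.66, 1.54 and 1.64 in knockout. Across the 39 members, paralogue number had a Pearson r of 0.06 and a Spearman rho of 0.03 with the log2 fold change. Within Hoxd it was 0.65 and 0.67 over 9 windows, the larger falls lying mostly towards the 3′ end. Within Hoxc it was -0.36 and -0.42 over 9 windows, within Hoxa -0.04 and 0.09 over 11, and within Hoxb -0.01 and -0.03 over 10. Windows of a cluster share libraries and neighbouring chromatin, so these values are descriptions.

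**Figure D3:**
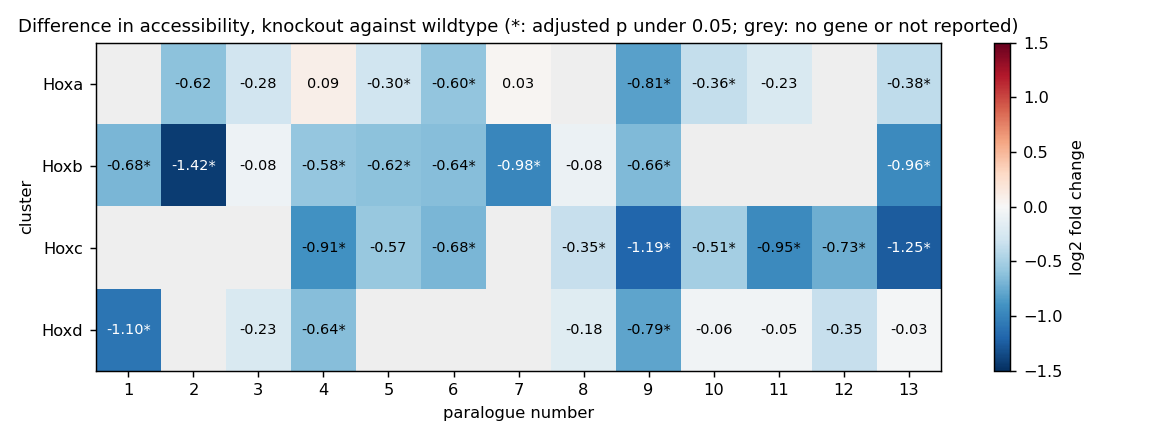
Log2 fold change (knockout against wildtype) of the reported Hox windows by cluster (rows) and paralogue number (columns), with blue for lower, red for higher and a star where the window passed the test. Group 9 is starred in all 4 clusters, and group 3 in none.

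Promoter sequences from RefSeq (GRCm38.p6) could be matched to 22 of the 39 members, each reaching from 250 bases before to 50 bases after a gene start. They are rich in CpG, the dinucleotide that marks many Polycomb-regulated promoters: the median was 14.5 CpG in 300 bases, beside 7 over the first promoter of 27025 genes. The 11 lower members with an entry had a median of 14 and the 11 that did not pass a median of 15. Across the 22, CpG number had a Pearson r of 0.17 and a Spearman rho of 0.22 with the log2 fold change. Shown are the member with the largest fall among those with an entry (Hoxd1, chr2:74762730-74763029, plus strand), the one nearest to no change (Hoxa7, chr6:52218524-52218823, minus strand) and the one with the highest mean level (Hoxa3, chr6:52213018-52213317, minus strand). Hoxd13 (chr2:74667975-74668274, plus strand) was added after its values were seen, as a window of the same cluster as Hoxd1 that did not pass. Each is written 5′ to 3′ with every CG in capitals.
Hoxd1: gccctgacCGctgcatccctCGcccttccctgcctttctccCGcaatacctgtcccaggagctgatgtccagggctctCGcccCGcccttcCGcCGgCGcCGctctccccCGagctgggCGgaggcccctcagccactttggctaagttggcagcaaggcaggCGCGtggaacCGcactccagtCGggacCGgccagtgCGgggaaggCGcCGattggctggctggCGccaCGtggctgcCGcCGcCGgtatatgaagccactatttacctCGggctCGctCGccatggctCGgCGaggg
Hoxd13: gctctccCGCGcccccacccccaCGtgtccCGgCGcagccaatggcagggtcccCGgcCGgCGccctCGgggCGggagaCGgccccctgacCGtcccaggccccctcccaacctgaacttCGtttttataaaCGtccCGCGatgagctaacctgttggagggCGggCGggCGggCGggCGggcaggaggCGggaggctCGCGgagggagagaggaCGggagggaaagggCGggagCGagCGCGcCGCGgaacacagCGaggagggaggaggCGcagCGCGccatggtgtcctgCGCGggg
Hoxa7: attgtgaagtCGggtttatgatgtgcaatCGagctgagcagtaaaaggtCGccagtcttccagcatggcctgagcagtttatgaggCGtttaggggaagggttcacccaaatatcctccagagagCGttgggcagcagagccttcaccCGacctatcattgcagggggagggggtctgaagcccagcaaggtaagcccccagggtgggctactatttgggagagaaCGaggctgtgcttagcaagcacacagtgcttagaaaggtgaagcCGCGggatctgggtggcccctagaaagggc
Hoxa3: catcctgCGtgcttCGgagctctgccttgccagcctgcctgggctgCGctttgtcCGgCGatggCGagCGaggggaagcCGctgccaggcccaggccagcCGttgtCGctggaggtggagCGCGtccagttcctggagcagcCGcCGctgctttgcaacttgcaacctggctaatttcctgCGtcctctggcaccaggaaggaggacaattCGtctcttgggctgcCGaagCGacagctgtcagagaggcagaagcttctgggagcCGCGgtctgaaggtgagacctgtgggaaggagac
Hoxd1 held 29 CpG and Hoxd13 held 37, so both are rich in CpG, though only the first was lower. Hoxa7 held 9 and Hoxa3 held 20. On either strand the motif CCAAT was found in 63.6% of the 22 Hox promoters and 37.9% of all promoters, and in 63.6% of both the lower members and those that did not pass. TATAAA was found in 13.6% and 14.2%. TGATTNAT, a joint site of PBX cofactors and HOX proteins, was found in 9.09% and 3.36%, namely at Hoxa2 and Hoxd11, neither of which passed. Matches of different motifs may overlap, and a match is a description of sequence only.

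Other windows inside the clusters were mostly lower too. Of 17 windows that lie between the first and last Hox window of a cluster, 14 were tested, 10 were lower and 0 higher, with a median log2 fold change of -0.63. The tested ones, except Mira and the window of gene identifier 100503966, lie in quartiles 2 and 3 of mean level. Of all tested windows in these quartiles 32.5% and 43.2% were lower, with medians of -0.27 and -0.19. The 17 windows include microRNA genes. Mir10a and Mir10b lie beside the group 4 genes, and the Mir196 genes lie beside the group 9 genes. The 5p arms of the Mir10 and Mir196 genes fall into 2 families by seed (bases 2 to 8, in capitals), and are shown because the members of a family lie in different clusters.
miR-10a-5p: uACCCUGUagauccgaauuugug
miR-10b-5p: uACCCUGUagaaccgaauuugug
miR-196a-5p: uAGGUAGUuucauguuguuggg
miR-196b-5p: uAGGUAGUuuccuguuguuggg
The seed ACCCUGU is shared by both miR-10 sequences, and AGGUAGU by both miR-196 sequences. The window of Mir196a-1, in Hoxb, held 15.6, 13.8 and 14.5 CPM in wildtype and 6.48, 6.57 and 6.24 CPM in knockout (log2 fold change -1.19, adjusted p = 5.24e-14, SE 0.15). Mir196a-2, in Hoxc, held 14.3, 13.4 and 13.5 CPM against 8.14, 9.38 and 7.03 CPM (log2 fold change -0.75, adjusted p = 2.57e-06, SE 0.15). Mir196b, in Hoxa, held 15.4, 18.9 and 17.6 CPM against 11.3, 9.97 and 11.4 CPM (log2 fold change -0.66, adjusted p = 5.66e-06, SE 0.13). All 3 windows of the miR-196 family were thus lower, each with its groups apart. Mir10b, in Hoxd, held 12.0, 13.9 and 13.1 CPM against 5.67, 6.81 and 7.28 CPM (log2 fold change -0.98, adjusted p = 2.11e-09, SE 0.15). Mir10a, in Hoxb, did not pass, at 3.54, 3.32 and 4.49 CPM against 3.09, 3.23 and 3.42 CPM (log2 fold change -0.22, adjusted p = 0.575, SE 0.26), and its groups overlapped.

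Long non-coding RNA windows were also lower. Hotair, an RNA made from within Hoxc and known for its ties to Polycomb complexes, held 12.9, 14.3 and 15.2 CPM against 6.36, 6.03 and 8.13 CPM (log2 fold change -1.05, adjusted p = 4.01e-11, SE 0.15). Hoxd3os1 fell by 0.60 on the log2 scale (adjusted p = 1.47e-05, SE 0.13) and Hoxaas3 by 0.46 (adjusted p = 0.0372, SE 0.18). Antisense and sense genes cannot be told apart in an assay without strand. In Hoxb, Gm11538 and Gm53 each fell by 0.87 (adjusted p = 0.000112 and 0.00427). In Hoxd, the window of gene identifier 399588 fell by 0.53 (adjusted p = 2.46e-05). By contrast 5730596B20Rik, between Hoxa2 and Hoxa4, held 42.4, 45.5 and 40.6 CPM against 42.2, 44.0 and 41.8 CPM and did not pass (log2 fold change -0.01, SE 0.11). Mira had a log2 fold change of 0.53 (SE 0.53) at no more than 1.25 CPM in any library, and did not pass. The window of gene identifier 100503966 did not pass either, at -0.18 (SE 0.48). Hoxa11os, Mir615 and the window of gene identifier 100504068 had too few counts to be tested.

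The windows beyond the ends of the clusters were called about as often as all tested windows, of which 20.2% were lower and 6.36% higher. Of the 3 nearest windows on each side of each cluster, 24 in all, 21 were tested, 5 were lower and 1 higher, and their median log2 fold change was 0.03. They came from every quartile of mean level, whereas most of those inside the clusters lie in quartiles 2 and 3. Evx1, an even-skipped homeobox gene 46.6 kb beyond Hoxa13, held 2.61, 4.03 and 3.07 CPM against 0.974, 1.91 and 1.35 CPM (log2 fold change -1.19, adjusted p = 0.00296, SE 0.34), and its antisense neighbour Evx1os had -1.21. Its counterpart Evx2, 2.89 kb beyond Hoxd13, held 7.94, 9.08 and 6.20 CPM against 8.60, 8.78 and 7.64 CPM and did not pass (log2 fold change 0.11, SE 0.16). Hoxa13, the Hox window nearest to Evx1, was lower, but its log2 fold change was 0.04 with loess offsets. Hoxd13, the nearest to Evx2, did not pass. These pairs were noticed in the same data, and a link between neighbours was not tested.

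The other flanking windows that were lower were Ttll6 at -1.25 and Calcoco2 at -0.76, before Hoxb13, and D930007P13Rik at -0.94, beyond Hoxc4. Mir688, 243 kb before Hoxc13, was higher at 1.16. The more accessible windows next to the clusters did not pass: Skap2 had a log2 fold change of 0.28, Snx10 0.24, Mtx2 0.20, Lnpk 0.15, Atp5g2 0.13, Smug1 0.09, Calcoco1 0.02 and Atp5g1 -0.06. Neither did the windows of lower counts, Hnrnpa2b1 at -1.03, Hnrnpa1 at -0.57, 2010300F17Rik at -0.46, Gm11529 at 0.03, 1700094M24Rik at 0.18 and 4930441J16Rik at 0.73. Skap1 and the windows of gene identifiers 545423 and 667739 were not tested for low counts.

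**Figure D4:**
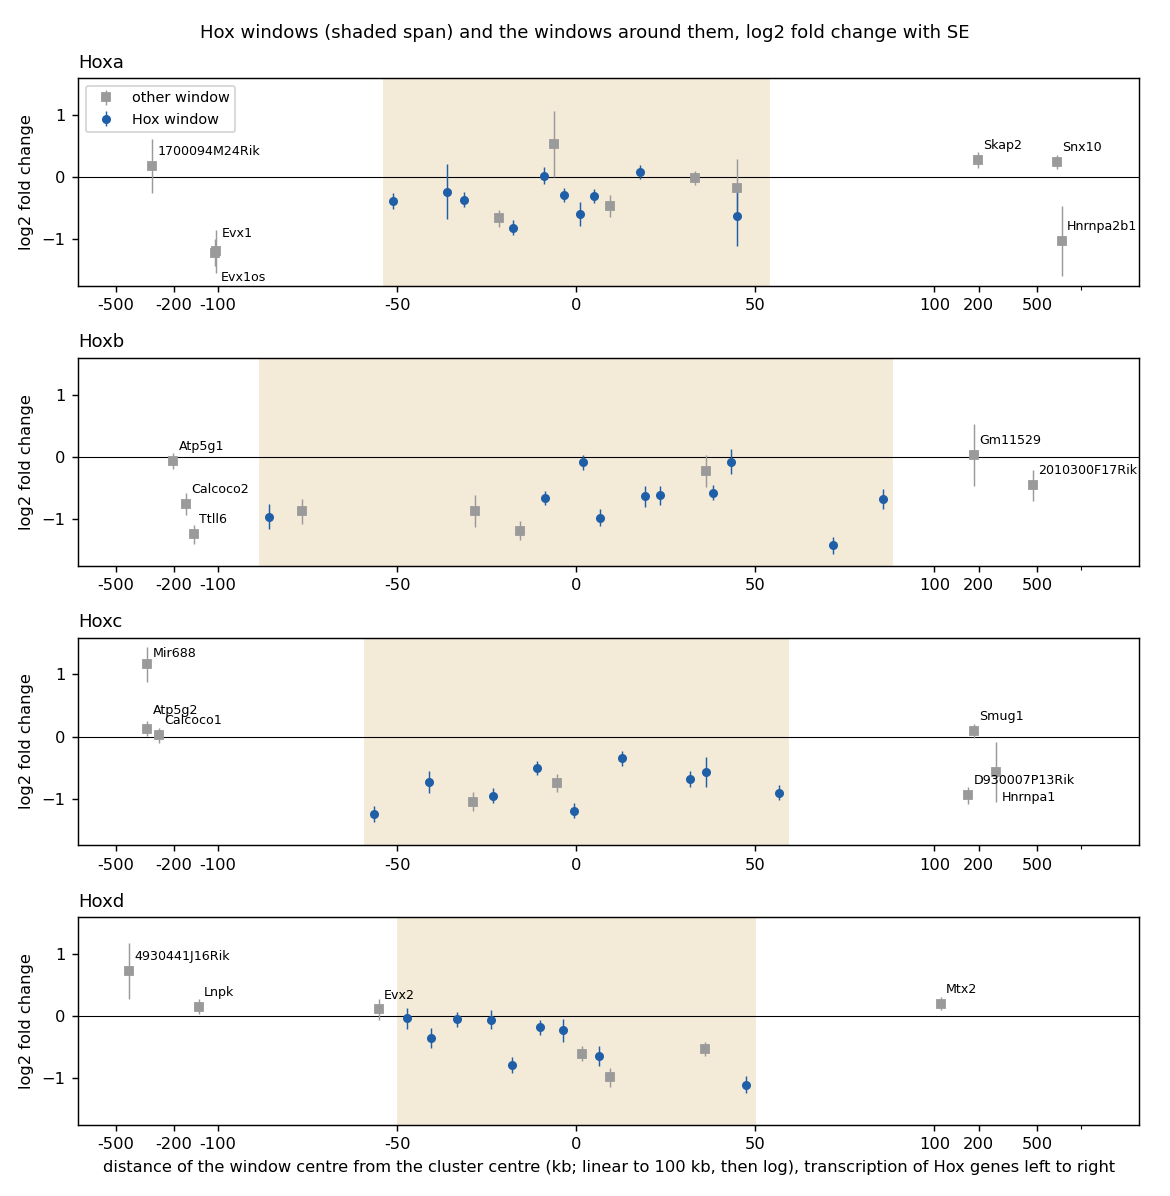
Log2 fold change with its SE (vertical axis) of Hox windows (circles) and other windows (squares) by distance of the window centre from the cluster centre in kb, linear to 100 kb and logarithmic beyond. Inside the shaded spans most windows lie below 0, and beyond them the tested windows have a median of 0.03.

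Genes that act with the HOX proteins or on the clusters were read from lists. Of 9 TALE cofactors, homeodomain proteins that bind DNA together with HOX, 1 was lower and 3 higher, with a median of 0.26. All 9 lie in quartiles 3 and 4 of mean level. Of all tested windows in these quartiles 43.2% and 3.72% were lower, and 9.28% and 9.32% higher, with medians of -0.19 and 0.11. Meis3 held 40.5, 34.9 and 37.1 CPM in wildtype and 15.2, 14.5 and 16.1 CPM in knockout (log2 fold change -1.30, adjusted p = 2.52e-26, SE 0.12). Pknox2, Meis2 and Meis1 rose by 0.45, 0.37 and 0.37 on the log2 scale (adjusted p = 0.00116, 0.0048 and 0.0162), though the groups of Meis2 overlapped. Pknox1 at 0.26 did not pass. Of the 9 cofactors, 3 had a log2 fold change below 0, and Meis3 was the one that passed.

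Polycomb and MLL genes were called about as often as other highly accessible windows. Most of them lie in the highest quartile of mean level, where 3.72% of all windows were lower and 9.32% higher, with a median log2 fold change of 0.11. Of 21 tested Polycomb genes, whose products silence Hox clusters, 1 was lower (Phf19, -0.30, adjusted p = 0.0297) and 3 higher (Pcgf2 0.50, Bmi1 0.37 and Rnf2 0.32, with adjusted p = 0.000114, 0.00866 and 0.031), with a median of 0.14. Aebp2 at 0.11 did not pass. Of 10 tested genes of the MLL complexes, which keep Hox genes active, 0 were lower and 1 higher (Rbbp5, 0.30, adjusted p = 0.0295), with a median of 0.18. Kmt2b at 0.18 and Kdm6a at 0.20 did not pass.

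The signals that open the clusters in the embryo were lower in part. Of 13 genes of CDX factors, retinoic acid and hindbrain regulators, 6 were lower and 0 higher, with a median of -0.28. Of the lower ones, Cdx2 and Cyp26c1 lie in quartile 2 of mean level, and Cyp26a1, Aldh1a2 and Gdf11 in quartile 3. Of all tested windows in these quartiles 32.5% and 43.2% were lower. Cdx1, at -0.37, lies in quartile 4, where 3.72% were lower. Cyp26c1, which breaks down retinoic acid, held 12.2, 8.76 and 10.8 CPM against 4.07, 5.08 and 5.87 CPM (log2 fold change -1.09, adjusted p = 1.6e-09, SE 0.17). Cdx2, a caudal activator of Hox genes, fell by 0.98 (adjusted p = 4.41e-07, SE 0.18), Aldh1a2, which makes retinoic acid, by 0.72 (adjusted p = 1.48e-08, SE 0.12), and Cyp26a1, which breaks it down, by 0.62 (adjusted p = 1.62e-06, SE 0.12). Enzymes that make and that break down retinoic acid were thus both among the lower windows. The receptor gene Rara at 0.24 did not pass.

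Relatives of the Hox genes outside the clusters were mostly lower. Of 10 related homeobox genes, 7 were lower and 0 higher, with a median of -0.62. All of them but Pdx1 lie in quartiles 2 and 3 of mean level. Of all tested windows in these quartiles 32.5% and 43.2% were lower, with medians of -0.27 and -0.19. Meox2, a mesoderm gene, held 9.63, 9.14 and 10.3 CPM against 1.89, 1.91 and 3.24 CPM (log2 fold change -2.05, adjusted p = 2.73e-22, SE 0.20). Evx1, above, is one of them, and Meox1 fell by 1.01 (adjusted p = 3.2e-06, SE 0.20) and Gbx2 by 0.80 (adjusted p = 4.48e-09, SE 0.13). Mnx1 at -0.01 and Evx2 did not pass. Of 8 genes of the pharyngeal pouch network in which Hoxa3 acts, 1 was lower and 2 higher. The lower one lies in quartile 3, where 43.2% of all tested windows were lower. The 2 higher ones lie in quartile 4, where 9.32% were higher. Tbx1 fell by 1.41 (adjusted p = 3.67e-22, SE 0.14), and Foxn1, the master regulator of thymic epithelium, rose by 1.69 (adjusted p = 4.98e-36, SE 0.13). Six4 rose by 0.34 (adjusted p = 0.0302, SE 0.13), and Pax9 at -0.13 did not pass.

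**Figure D5:**
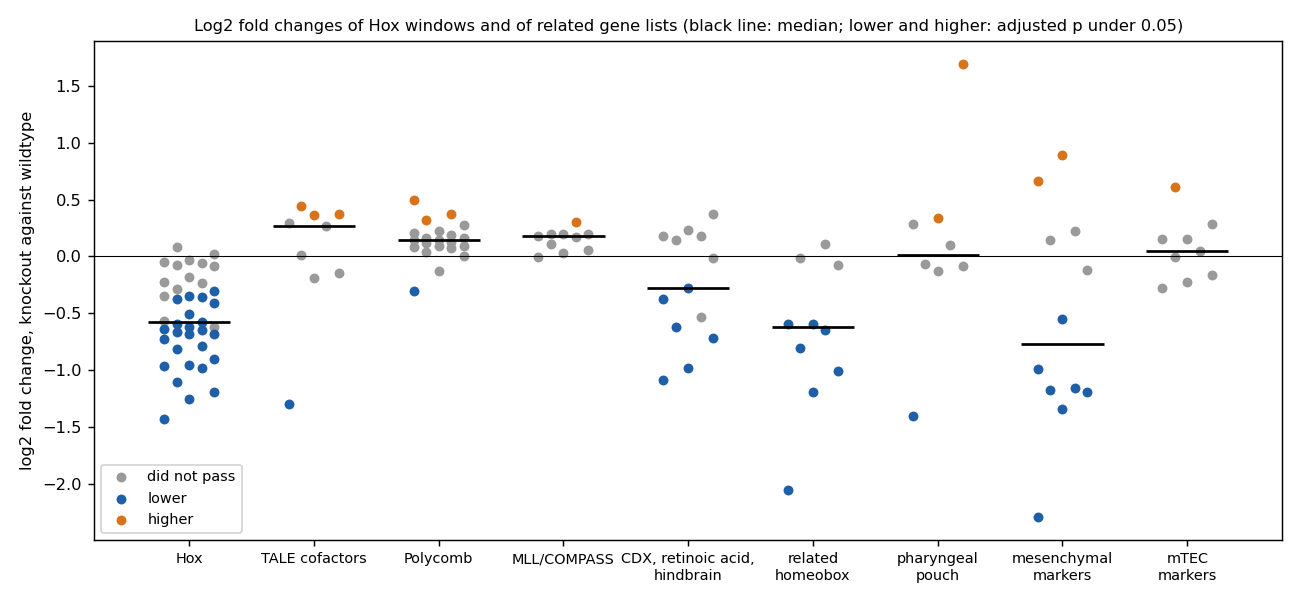
Log2 fold change (knockout against wildtype) of each tested window in the Hox clusters, in 6 related gene lists and in the mesenchymal and mTEC (medullary thymic epithelial cell) marker lists, coloured by call, with the list median as a black line. The Hox and related homeobox medians lie at -0.58 and -0.62, and those of the Polycomb and MLL lists at 0.14 and 0.18.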

How the data were processed

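ATAC-seq counts of 6 libraries (3 wildtype, 3 Kat7 knockout) were used as the authors deposited them: whole-number counts per gene window, made with featureCounts on build mm10 according to the submitters' processing notes. The sources used here name no aligner and no treatment of duplicates. Per the file headers and coordinates, a window spans 3000 bases before and 2000 bases after the start of its gene. Reads in stretches shared by several windows appear to be left out, so overlapping windows report their unshared part. Symbols came from the files, and 16 of 1280 missing ones from a RefSeq table.

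The test was that of edgeR 4.0.16 under R 4.3.3: filterByExpr defaults (24817 windows), TMM factors (0.884 to 1.057), robust glmQLFit and glmQLFTest, and Benjamini-Hochberg adjustment at 0.05. The script was tested on simulated data. CPM are counts scaled by library size and TMM factor. The labels call the libraries biological replicates, and p-values measure the spread between them. Alternatives were other scalings, DESeq2 1.42.0, other count filters, a replicate block and libraries left out. Up to 25 members past the threshold and the highest 2 of each cluster are given in full, of each list up to 4 that passed and 2 that did not, and all neighbours. The members and lists were chosen with earlier results of these data known. A few windows of the clusters and lists are counted in the totals but are not reported here singly.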

Additional observations from a re-analysis of the deposited data

How the results depend on the processing

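The number of Hox windows lower was 25, and lay between 20 (DESeq2) and 27 under 13 alternatives, with 0 higher. With loess offsets it was 14, with 6 higher. Of the 25, 13 kept their call in all 14 alternatives: Hoxa9, Hoxb2, Hoxb7, Hoxb9, Hoxb13, Hoxc4, Hoxc6, Hoxc9, Hoxc10, Hoxc11, Hoxc13, Hoxd1 and Hoxd9. The Hox median of -0.58 became -0.52 with RLE factors, -0.52 with DESeq2 and -0.20 with loess offsets, and lay between -0.59 and -0.50 with 1 library left out. Over all windows, 1578 were higher, against 2937 with library totals only, 4318 with loess offsets, 3937 at a mean count of at least 50, 2664 with replicates 2 and 3 only, and 689 (without wildtype replicate 1) to 3177 (without knockout replicate 1) with 1 library left out. Windows lower over all were 5011, and 5317 with library totals only and 4870 with loess offsets. The replicate block gave 27 Hox windows lower, 0 higher, and 2824 windows higher over all. Pairing was checked on the deviation of each library from the mean log2 CPM of its group, over all tested windows. These deviations had correlations of 0.374, 0.0284 and 0.389 between same-numbered libraries. Those of knockout library 2 correlated best with those of wildtype library 3 (0.308), so the numbers were not taken to pair the libraries.

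With loess offsets the median of Hoxa turned to 0.014 and that of Hoxd to 0.19. Single windows turned with the same offsets: Hoxa3 to 0.014, Hoxa5 to 0.055, Hoxa10 to 0.045, Hoxa13 to 0.040, Hoxb3 to 0.30, Hoxb8 to 0.27, Hoxc8 to 0.0068, Hoxd3 to 0.19, Hoxd8 to 0.21, Hoxd10 to 0.40, Hoxd11 to 0.28, Hoxd12 to 0.095 and Hoxd13 to 0.41. Hoxa7 turned to -0.0074 with library totals only, to -0.012 without a count filter and to -0.12 with replicates 2 and 3 only, which also turned Hoxa11 to 0.13. RLE factors turned Hoxd11 to 0.0025 and Hoxd13 to 0.019, and DESeq2 turned Hoxd13 to 0.015. With 1 library left out, Hoxa4 ran from -0.012 to 0.15, Hoxa7 from -0.089 to 0.13, Hoxb3 from -0.19 to 0.048, Hoxd11 from -0.17 to 0.010 and Hoxd13 from -0.091 to 0.0059. The causes were not tested.

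Depth limits Hoxa2 and Hoxa11, with 11 counts in the lowest library. Where 1 library is left out, that group rests on 2 libraries.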

Other observations

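Kat7 itself lies on the chromosome of the Hoxb cluster, with its window (chromosome 11, 95308246 to 95313246, mm10) 878 kb from the nearest Hoxb window. Of 96 windows other than Hox within 2 Mb of it, 91 were tested, 28 were lower and 6 higher, with a median log2 fold change of -0.12. Over all tested windows 20.2% were lower and 6.36% higher, with a median of 0.04. All 10 Hoxb windows lie within the same distance of Kat7 and 8 of them were lower. Whether the distance from the deleted gene bears on the Hoxb values was not tested, and the Hoxa, Hoxc and Hoxd clusters lie on other chromosomes.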
